A study of Homo sapiens with 8 samples.

Results

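The genes described here are the receptors and ligands of the epidermal growth factor family together with 2 close partners: the ERBB receptors EGFR, ERBB2 and ERBB3, the EGF-like ligands AREG, EREG, HBEGF, TGFA and BTC, the HGF receptor MET, and ERRFI1, an inhibitor of EGFR. They were picked as a gene family by name, with earlier results of these data known, and all 10 were on the array, out of 34809 gene names in all. They were read by 54 spots of 16 probes, and all 10 passed the filter on dim probes, which 20450 gene names passed. RNA came from HuCCT1, an established human cell line of intrahepatic cholangiocarcinoma, a cancer of the bile ducts within the liver. In the 4 groups, cells carried the vector shControl or shNontarget, both labelled as control, or the vector shBEX2-1 or shBEX2-2, which express short hairpin RNAs against BEX2 and are labelled as BEX2 knockdown. The hairpins were delivered by retrovirus, so that each group was a transduced subline of the same line, and the labels name no other treatment. Each vector was measured on 2 single-colour arrays, and nothing states that these came from separate cultures, so that p-values measure only the spread between these arrays. The fit of 4 BEX2-knockdown against 4 control arrays took each array as a unit of its own, although each side held only 2 vectors.

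ERBB receptors are tyrosine kinases of the cell surface that pair with each other when an EGF-like ligand binds, and the paired receptors signal through RAS and MAPK, PI3K and AKT, and STAT proteins. The ligands are made as membrane-anchored precursors that proteases of the ADAM family cut free, and cells that make both ligand and receptor can stimulate themselves. Several steps dampen the signal, among them ERRFI1, which binds the kinase domain of EGFR, and ubiquitin ligases that send receptors to degradation. In the bile duct the same receptors act in epithelial growth and repair, and ERBB2, EGFR and MET are recurrently altered in cholangiocarcinoma.

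Each level rests on a probe of 60 bases, and where a gene had several probes the brightest stood for it. The probes on which the results turn are shown by their leading 30 bases, 5′ to 3′, with the position of the whole probe on hg19. For ERBB3 the probes read different transcripts, NM_001982 and the short variant NM_001005915, and for TGFA both probes read NM_003236. The HBEGF probe reads NM_001945. No base of the probes is in capitals, since none was singled out.
HBEGF, A_24_P140608, chr5:139713052-139713111, minus strand: cccatctgtagtaatttattgtctgtctac
ERBB3, A_23_P349416, chr12:56496160-56496219, plus strand: gctcttgactacttggaactaggctcttat
ERBB3, A_33_P3211569, chr12:56479217-56479276, plus strand: ttttctaatttcaaagtacagtgtaccgga
TGFA, A_33_P3408203, chr2:70683472-70683531, minus strand: ccttggtggtggtctccatcgtggccctgg
TGFA, A_23_P377291, chr2:70675319-70675378, minus strand: ttttttaagcatcctgacaggaaatgtttt

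The ligand genes differ in where they lie and in the letters before their starts. EREG, AREG and BTC lie next to each other on chromosome 4 with EPGN, another EGF-like ligand, at one end, and no other protein-coding gene lies between these 4 in the RefSeq gene table. Their probes span 497.1 kb of hg19, from 75178782 to 75675897. HBEGF lies on chromosome 5. The 250 bases before the gene start are shown for HBEGF, the ligand gene among the 10 that fell, and for the neighbours AREG and EREG (RefSeq, GRCh38.p14, 5′ to 3′ on the gene's strand). Capitals mark matches on either strand to any of 5 motifs, a TATA box searched as TATAAA, a cAMP response element searched as TGACGTCA, an AP-1 site searched as TGANTCA, an E-box searched as CACGTG, and a GC box searched as GGGCGG.
HBEGF, chr5:140346604-140346853, minus strand: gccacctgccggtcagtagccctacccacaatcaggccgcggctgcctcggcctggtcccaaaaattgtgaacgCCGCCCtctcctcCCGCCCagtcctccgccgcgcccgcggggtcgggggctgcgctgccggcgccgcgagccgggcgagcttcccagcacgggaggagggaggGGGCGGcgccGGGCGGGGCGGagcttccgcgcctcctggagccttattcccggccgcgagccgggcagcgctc
AREG, chr4:74444886-74445135, plus strand: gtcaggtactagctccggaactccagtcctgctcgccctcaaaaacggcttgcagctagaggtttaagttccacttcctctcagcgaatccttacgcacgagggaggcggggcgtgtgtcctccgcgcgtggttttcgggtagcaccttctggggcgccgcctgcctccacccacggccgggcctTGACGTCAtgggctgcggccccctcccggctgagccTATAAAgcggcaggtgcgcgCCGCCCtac
EREG, chr4:74364895-74365144, plus strand: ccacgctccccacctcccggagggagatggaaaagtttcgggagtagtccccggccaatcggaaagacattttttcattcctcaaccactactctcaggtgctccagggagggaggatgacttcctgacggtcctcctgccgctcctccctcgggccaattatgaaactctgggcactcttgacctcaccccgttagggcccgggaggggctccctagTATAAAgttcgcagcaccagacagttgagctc
AREG and EREG each held a TATA box, which began at -29 and -32 relative to the gene start, and AREG also a cAMP response element at -65 and a GC box at -9. HBEGF held 5 GC boxes, of which those at -63 and -58 overlap by 1 base, and neither a TATA box nor a cAMP response element in these letters. Over the 35116 promoter windows of 300 bases in the table (250 before and 50 after the gene start), 11.5% held TATAAA, 1.85% TGACGTCA, 7.71% TGANTCA, 7.26% CACGTG and 45.0% GGGCGG. Windows were found for 9 of the 10 genes, 11 windows in all, and GGGCGG occurred in a window of 7 genes, TATAAA in those of 3 genes (AREG, EREG and EGFR). TGANTCA occurred in windows of EGFR and ERBB2, CACGTG in that of MET and TGACGTCA in that of AREG. These matches describe letters and not sites in use.

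The authors deposited the intensity of each spot as the scanner software gave it, and levels are given here as its log2 minus that of the array's 75th percentile. A level of 0 is therefore that percentile, and a difference of 1 is a doubling. On every array between 59.8% and 64.7% of the spots were well above background and none was saturated, and precision is limited by there being 2 arrays a vector. Every BEX2-knockdown array was dimmer than every control array before scaling, with a 75th percentile of 441.5 to 631.4 against 667.3 to 837.9. One slide held all 8 arrays, with the control arrays in one row and the BEX2-knockdown arrays in the other, so that position and group cannot be told apart. RNA of the targeted gene, BEX2, was lower without overlap of the groups, with a log2 fold change of -1.63 (standard error 0.32, limma with Benjamini-Hochberg adjustment, adjusted p = 0.0116). This size is rough, since the BEX2 probe was not well above background on either shBEX2-1 array, where its intensities were 11.9 and 11.1. In shBEX2-2 cells, with readings above background, the value was -1.32 and did not pass (adjusted p = 0.0812 by limma). With normexp background correction, another way to remove background, the difference was -0.45 (adjusted p = 0.0791 by limma). The 2 shNontarget arrays stood apart from each other, with 7133 genes (34.9%) differing by over 1 on the log2 scale, against between 114 and 360 genes within the other vectors. For the 10 genes the median difference between the arrays of a vector was 0.31 for shNontarget, 0.042 for shControl, 0.10 for shBEX2-1 and 0.096 for shBEX2-2. All 7 markers of biliary and simple epithelium, KRT7 and KRT19 among them, were well above background on all 8 arrays, and KRT8 rose by 1.02 in BEX2-knockdown cells (adjusted p = 0.0165 by limma). Of 4 hepatocyte markers ALB and TTR were above background on no array, TF on 1 and APOA1 on 6. Among markers of other cell types COL1A1, LUM, CD14, CDH5 and VWF were above background on all 8 arrays and COL1A2, COL3A1 and PECAM1 on none, and CD14 rose by 0.54 (adjusted p = 0.0295 by limma). The part of these in the results was not tested.

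The main question was whether RNA of these genes differed between BEX2-knockdown and control cells. HBEGF and ERBB3 fell, with log2 fold changes of -0.82 and -0.78, which is 1.76-fold and 1.72-fold lower. No gene among the 10 rose past the threshold in this fit of 4 against 4 arrays, while BTC did in a model of the 4 vectors (adjusted p = 0.0338 by limma). The remaining 8, EGFR, ERBB2, AREG, EREG, TGFA, BTC, MET and ERRFI1, did not pass, with log2 fold changes from -0.28 for ERBB2 to 0.52 for BTC. By limma with Benjamini-Hochberg adjustment over all genes, 2 of 10 were called at an adjusted p of 0.05, where 12.9% of all genes were called, 6.68% as higher and 6.26% as lower. At an unadjusted p under 0.05 there were 3 of 10, with BTC added, against 27.8% of all genes. In 2 of 10 the 4 arrays of one kind did not overlap the 4 of the other, against 22.1% of all genes. Both counts are close to what the shares over all genes give for a list of this length, so that they say nothing particular to this family. The median log2 fold change was -0.057 for the 10 genes and 0.027 for all genes tested.

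**Figure D1:**
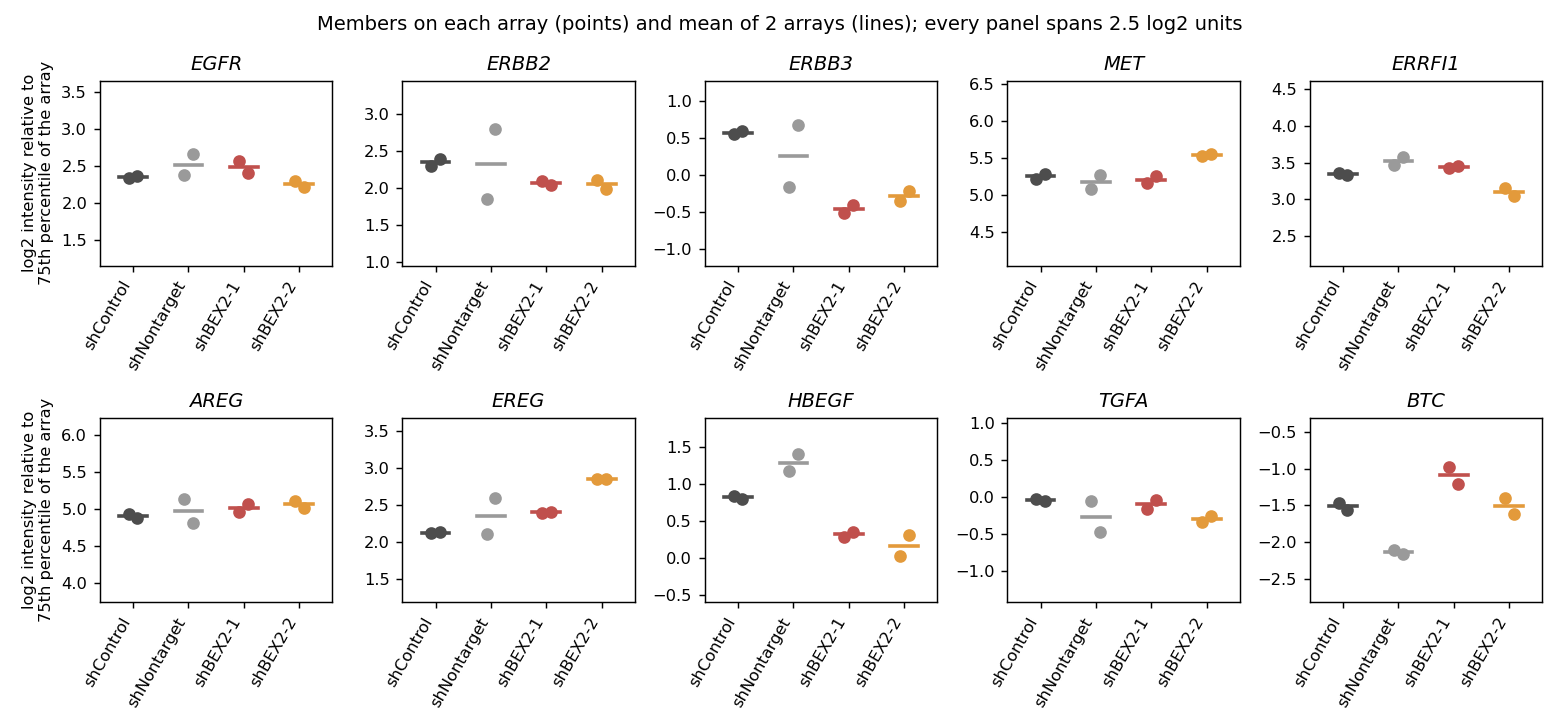
Level of each of the 10 genes on each of the 8 arrays (points), as log2 intensity relative to the 75th percentile of the array, with the mean of the 2 arrays of a vector as a line; every panel spans the same height, and its axis does not start at 0. For HBEGF and ERBB3 the highest BEX2-knockdown array lay under the lowest control array, and the shNontarget arrays lay far apart for ERBB2, ERBB3 and EREG.

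Among the receptors, ERBB3 carried the change. ERBB3 binds neuregulins, has a weak kinase of its own, and recruits PI3K when paired with ERBB2 or EGFR. Its level on the NM_001982 probe was 0.56 and 0.60 on the shControl arrays, -0.16 and 0.68 on the shNontarget arrays, -0.51 and -0.40 on the shBEX2-1 arrays, and -0.35 and -0.21 on the shBEX2-2 arrays. All 4 BEX2-knockdown arrays lay below all 4 control arrays, but shNontarget replicate 1 lay within 0.05 of the nearest of them. ERBB3 differed by -0.78 on the log2 scale (standard error 0.19, 95% interval from -1.22 to -0.35, adjusted p = 0.0295 by limma). With only shControl as control it was -0.94 (adjusted p = 0.000718 by limma) and with only shNontarget -0.62 (adjusted p = 0.253). The call was lost when any one of the shControl, shBEX2-1 or shBEX2-2 arrays was left out, with adjusted p from 0.0618 without shBEX2-2 replicate 2 to 0.0907 without shControl replicate 1 by limma, and kept when either shNontarget array was left out.

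The fall of ERBB3 was seen on the NM_001982 probe and not on the probe of the short variant. That variant lacks most of the receptor and encodes a secreted form of its extracellular part. On its probe the levels were -0.85 and -1.01 for shControl, -1.45 and -0.78 for shNontarget, -0.90 and -0.99 for shBEX2-1, and -1.0 and -0.98 for shBEX2-2. The BEX2-knockdown arrays lay inside the range of the control arrays, with a difference of 0.055. A further probe of NM_001982 was well above background on 2 of the 8 arrays and gives no level. Averaging the passing probes of ERBB3 gave -0.36 (adjusted p = 0.208 by limma), so that the call belongs to 1 probe.

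EGFR, the receptor of all 5 ligands listed here, did not pass the test. Its level was 2.34 and 2.37 for shControl, 2.38 and 2.66 for shNontarget, 2.57 and 2.41 for shBEX2-1, and 2.30 and 2.21 for shBEX2-2. The groups overlapped, with shNontarget replicate 2 the highest array and the shBEX2-2 arrays the lowest. The log2 fold change was -0.068 (standard error 0.13, 95% interval from -0.36 to 0.23, adjusted p = 0.787 by limma), and it was 0.015 with only shControl as control. The EGFR probe was printed as 10 spots, whose SD within an array had a median of 0.060 on the log2 scale. Probes of the short variants NM_201283 and NM_201282 differed by -0.17, without overlap of the groups, and by 0.16, with overlap. The probe of NM_201283 read -0.15, -0.16, 0.29 and -0.12 on the control arrays and -0.22, -0.21, -0.16 and -0.21 on the BEX2-knockdown arrays, so that most of its difference lay in shNontarget replicate 1.

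ERBB2, which has no known ligand and acts as the preferred partner of the other receptors, did not pass the test either. It read 2.31 and 2.40 for shControl, 1.85 and 2.81 for shNontarget, 2.10 and 2.05 for shBEX2-1, and 2.11 and 2.00 for shBEX2-2. The 4 BEX2-knockdown arrays lay within 0.12 of each other, below both shControl arrays and between the shNontarget arrays, which differed more from each other than the arrays of any other vector. The log2 fold change was -0.28 (standard error 0.19, 95% interval from -0.70 to 0.15, adjusted p = 0.386 by limma). With only shControl as control it was -0.29 and passed (adjusted p = 0.0255 by limma), and it was -0.44 without shNontarget replicate 1 and -0.12 without shNontarget replicate 2, neither past the threshold. This probe too was printed as 10 spots, with a median SD of 0.054 within an array, so that the gap of the shNontarget arrays was far larger than the spread of its spots. ERBB4, the remaining receptor of the family, was well above background on 1 of the 8 arrays and was not tested.

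**Figure D2:**
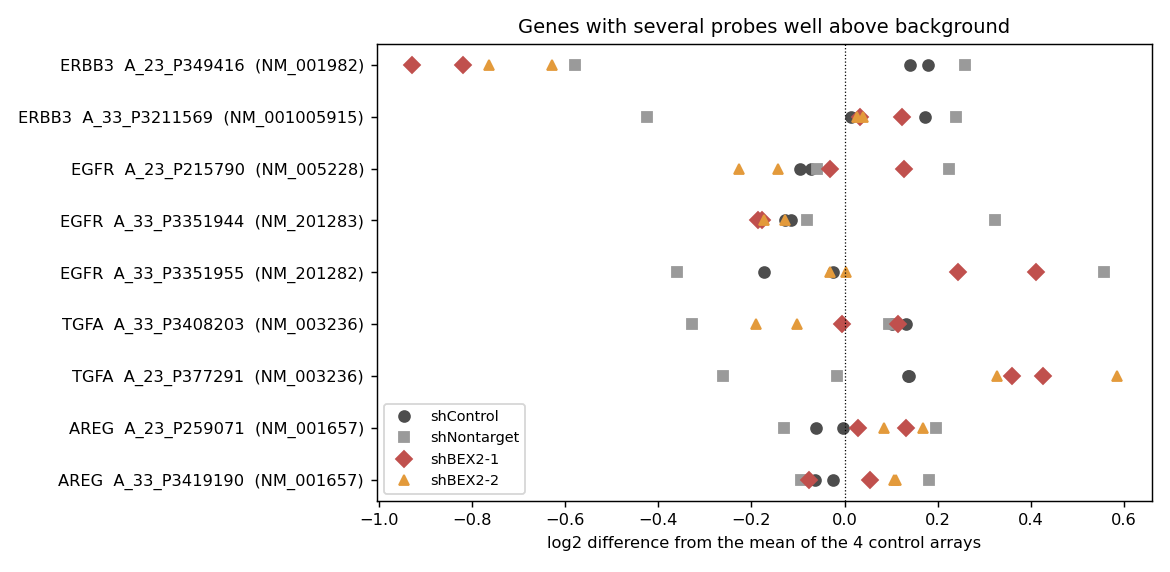
Difference of each array from the mean of the 4 control arrays, on the log2 scale, for each probe of the 4 genes with several probes well above background; symbols stand for the vectors, and the transcript each probe was designed for is in brackets. The BEX2-knockdown arrays lay to the left for the NM_001982 probe of ERBB3 (-0.78) and about 0 for the probe of its short variant (0.055), and the TGFA probes gave -0.046 and 0.42.

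Among the ligands, HBEGF changed. HBEGF encodes heparin-binding EGF-like growth factor, which binds EGFR and ERBB4 and whose precursor is the receptor of diphtheria toxin. Its level was 0.84 and 0.80 on the shControl arrays, 1.18 and 1.40 on the shNontarget arrays, 0.29 and 0.34 on the shBEX2-1 arrays, and 0.018 and 0.31 on the shBEX2-2 arrays. The lowest control array stood 0.45 above the highest BEX2-knockdown array, and the shNontarget arrays were the highest of all. HBEGF differed by -0.82 on the log2 scale (standard error 0.16, 95% interval from -1.18 to -0.45, adjusted p = 0.0128 by limma). It was -0.58 with only shControl as control (adjusted p = 0.00669 by limma) and -1.05 with only shNontarget (adjusted p = 0.0428). Of the arrays left out in turn, shBEX2-2 replicate 1 alone cost HBEGF its call, with -0.74 and an adjusted p of 0.0508 by limma.

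AREG and EREG, the neighbours on chromosome 4, are ligands of EGFR, and EREG also binds ERBB4. AREG read 4.93 and 4.88 for shControl, 5.13 and 4.81 for shNontarget, 4.97 and 5.07 for shBEX2-1, and 5.11 and 5.02 for shBEX2-2. These arrays overlapped, with a log2 fold change of 0.10 (standard error 0.13, 95% interval from -0.18 to 0.39, adjusted p = 0.650 by limma), and the other AREG probe gave 0.048. The accessions of the brighter probe include one of a near-identical copy, so that AREG and this copy cannot be told apart. EREG read 2.12 and 2.13 for shControl, 2.10 and 2.59 for shNontarget, 2.39 and 2.40 for shBEX2-1, and 2.85 and 2.85 for shBEX2-2. Here the shBEX2-2 arrays lay above all others, and shNontarget replicate 2 lay above both shBEX2-1 arrays. The log2 fold change of EREG was 0.39 (standard error 0.17, adjusted p = 0.185 by limma), and without shNontarget replicate 2 it was 0.51 and passed (adjusted p = 0.0431).

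BTC, at the far end of the same gene cluster, encodes betacellulin, a ligand of EGFR and ERBB4. Its level was -1.47 and -1.56 for shControl, -2.11 and -2.16 for shNontarget, -0.98 and -1.21 for shBEX2-1, and -1.40 and -1.61 for shBEX2-2. The vectors formed steps, with shNontarget lowest, shControl and shBEX2-2 overlapping, and shBEX2-1 highest. The log2 fold change of all 4 BEX2-knockdown arrays was 0.52 (standard error 0.21, 95% interval from 0.042 to 1.00, adjusted p = 0.149 by limma). In the model of the 4 vectors the same value passed (adjusted p = 0.0338 by limma), and with only shControl as control it was 0.21. TGFA, which encodes transforming growth factor alpha, read -0.021 and -0.050 for shControl, -0.058 and -0.48 for shNontarget, -0.16 and -0.037 for shBEX2-1, and -0.34 and -0.25 for shBEX2-2, and the groups overlapped. Its log2 fold change was -0.046 (standard error 0.14, 95% interval from -0.37 to 0.28, adjusted p = 0.874 by limma). The dimmer TGFA probe gave 0.42, with the BEX2-knockdown arrays (-3.54 to -3.28) above the control arrays (-4.13 to -3.73), and its spots differed within an array by a median SD of 0.27. The direction of TGFA therefore depended on the probe.

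Other EGF-like ligands were mostly below the range of the assay. EGF itself was detected above background on 2 arrays, both of shBEX2-2 cells, where its intensities were 18.9 and 13.9 against 4.78 to 6.89 in control cells. EPGN was well above background on 1 array, and NRG2, NRG3 and NRG4 on none. NRG1, a neuregulin that binds ERBB3 and ERBB4 and is not among the 10 genes, rose. It read -3.25 and -3.19 for shControl, -2.74 and -2.85 for shNontarget, -2.53 and -2.46 for shBEX2-1, and -1.80 and -1.73 for shBEX2-2, with no overlap between the groups. Its log2 fold change was 0.88 (standard error 0.23, adjusted p = 0.0397 by limma). Its other probe gave 0.70 with overlapping groups, and the mean of both probes 0.79 (adjusted p = 0.0666 by limma). The call was also lost by limma with the replicate number as a block (adjusted p = 0.0543) and with no filter on dim probes (adjusted p = 0.0725). Student's t-test with Benjamini-Hochberg adjustment did not keep it either (adjusted p = 0.0786). By limma it was lost with only shNontarget as control (0.67, adjusted p = 0.292). Leaving out 1 of the shControl arrays, 1 of the shBEX2-2 arrays or shBEX2-1 replicate 2 cost it too (adjusted p from 0.0513 to 0.125 by limma).

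MET, the receptor of hepatocyte growth factor, belongs to another kinase family that shares adaptors and downstream kinases with the ERBB receptors. MET read 5.22 and 5.29 for shControl, 5.08 and 5.27 for shNontarget, 5.16 and 5.26 for shBEX2-1, and 5.52 and 5.56 for shBEX2-2. The shBEX2-2 arrays stood above the other 6, and the shBEX2-1 arrays lay within the control range. For the 4 against 4 the log2 fold change was 0.16 (standard error 0.14, 95% interval from -0.16 to 0.48, adjusted p = 0.521 by limma). HGF, its ligand, was well above background on no array. ERRFI1 read 3.36 and 3.33 for shControl, 3.47 and 3.58 for shNontarget, 3.43 and 3.45 for shBEX2-1, and 3.16 and 3.05 for shBEX2-2. It was lowest on the shBEX2-2 arrays and otherwise overlapped, with a log2 fold change of -0.16 (standard error 0.14, 95% interval from -0.47 to 0.14, adjusted p = 0.491 by limma).

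**Figure D3:**
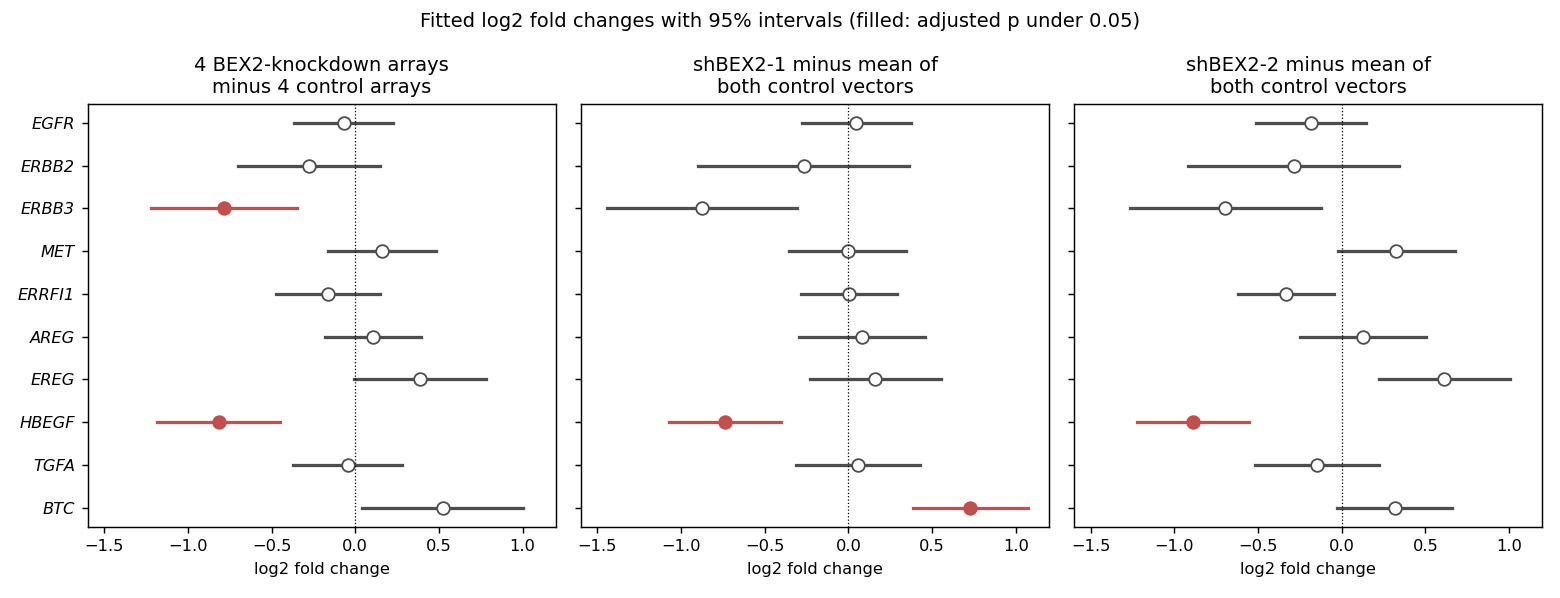
Fitted log2 fold changes of the 10 genes (points) with their 95% intervals (lines) for the 4 BEX2-knockdown arrays against the 4 control arrays and for each BEX2-knockdown vector against the mean of both control vectors; filled points passed an adjusted p of 0.05, and the last 2 panels share the control arrays. HBEGF passed in all 3 panels (-0.82, -0.74 and -0.89), ERBB3 in the panel of 4 arrays against 4 (-0.78), and BTC in that of shBEX2-1 (0.73).

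Each BEX2-knockdown vector was next set against the mean of both control vectors, which both comparisons share. The target sequences that the paper prints for its BEX2 hairpins are the same stretch read on opposite strands, shifted by a base. Agreement of the BEX2-knockdown vectors is therefore not that of hairpins against separate sites. HBEGF fell in both, with log2 fold changes of -0.74 in shBEX2-1 cells (adjusted p = 0.0324 by limma) and -0.89 in shBEX2-2 cells (adjusted p = 0.0145). ERBB3 was at -0.87 and -0.70 and passed in neither (adjusted p = 0.0852 and 0.135 by limma), and BTC rose in shBEX2-1 cells by 0.73 (adjusted p = 0.0363) and was at 0.32 in shBEX2-2 cells (adjusted p = 0.247). In all, 2 of 10 genes passed for shBEX2-1, against 7.03% of all genes, and 1 of 10 for shBEX2-2, against 9.67%. For EREG, MET and ERRFI1 the fitted values were 0.16, -0.0050 and 0.0036 in shBEX2-1 cells and 0.61, 0.33 and -0.33 in shBEX2-2 cells, none past the threshold. EREG in shBEX2-1 cells was at 0.038 without shNontarget replicate 1 and at 0.28 without shNontarget replicate 2. In shBEX2-2 cells, with single arrays left out, EREG lay between 0.49 and 0.74, MET between 0.28 and 0.37 and ERRFI1 between -0.38 and -0.28. NRG1 stood at 0.51 in shBEX2-1 cells (adjusted p = 0.0871 by limma) and rose by 1.25 in shBEX2-2 cells (adjusted p = 0.00538). With 2 arrays a vector these calls were fragile. With only shControl as control both counts were 0, where 1091 and 1519 of all 20450 genes passed. A fit without 1 array leaves its vector with 1 array, so that no counts are given for such fits.

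No gene of the 10 differed past the threshold between shBEX2-1 and shBEX2-2, where 0.00978% of all genes did by limma with Benjamini-Hochberg adjustment. At an unadjusted p under 0.05 the count was 3 of 10, against 7.29% of all genes. They were EREG, with a difference of -0.45 and shBEX2-1 the lower (95% interval from -0.90 to -0.00048), BTC, with a difference of 0.41 (from 0.015 to 0.81), and ERRFI1, with 0.33 (from 0.0018 to 0.67). HBEGF differed by 0.15 (95% interval from -0.24 to 0.54) and ERBB3 by -0.18 (from -0.84 to 0.48), intervals that leave room for differences of either sign. Outside the 10 genes, NRG1 differed by -0.73 (95% interval from -1.12 to -0.34, adjusted p = 0.231 by limma). Leaving out either shNontarget array narrows the spread shared by all vectors but leaves 1 array for that vector, so that no count is given. With single arrays left out, EREG lay between -0.46 and -0.44, BTC between 0.29 and 0.53 and ERRFI1 between 0.28 and 0.39.

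The control vectors gave the background of such differences. Between shNontarget and shControl 0 of 10 genes passed, as did 0% of all genes by limma. The spread in this test took in the shNontarget arrays, between which 34.9% of genes differed by over 1 on the log2 scale. The counts of 0 therefore do not show that the control vectors were alike. At an unadjusted p under 0.05 there were 2 of 10, against 7.66% of all genes. Those were BTC, with a difference of -0.62, lower in shNontarget cells (95% interval from -1.02 to -0.22, adjusted p = 0.422 by limma), and HBEGF, with 0.47, higher in them (from 0.083 to 0.86, adjusted p = 0.563). The gap of BTC between the control vectors was thus of the size of its difference between BEX2-knockdown and control cells, and that of HBEGF was smaller than its fall. Over all 4 vectors, limma's moderated F test called 1 of 10, HBEGF (adjusted p = 0.0301), against 6.77% of all genes. ERBB3 and BTC had adjusted p of 0.162 and 0.0538 in that test, and with the replicate number as a block 0 of 10 passed.

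How the genes moved with each other over the 8 arrays was also described, without a test, since all values of an array share its RNA, scaling and position. AREG ran opposite to ERBB2 (Pearson r = -0.905 over 8 arrays, and -0.875 after the mean of each arm was taken out). EREG and MET had r = 0.843 and ERRFI1 and MET r = -0.843. EGFR and ERRFI1, its inhibitor, had r = 0.837. The 2 shNontarget arrays, which stood apart, carry much of the range of AREG and ERBB2, and the shBEX2-2 arrays that of EREG, MET and ERRFI1. The genes whose 8 values ran most like those of HBEGF were ZNF630 (r = 0.994), COQ4 (r = 0.992) and ZNF187 (r = 0.987), and 417 other genes had r over 0.9.

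Around the receptors and ligands, 71 genes were listed by hand by their part in the pathway, and 64 of them passed the filter on dim probes. BEX2-knockdown cells differed from control cells in 9 of the 64 (3 higher and 6 lower), next to 12.9% of all genes by limma, with a median log2 fold change of 0.034 over the list. Outside the 10 genes the counts were 7 of 54, with 3 higher and 4 lower. Of 14 tested genes of receptor attenuation, 1 rose and 2 fell (median -0.039). The 26 adaptors and cores of the RAS-MAPK and PI3K pathways had a median of 0.098, and PIK3R2 among them fell. None of 8 genes of ligand release and trafficking passed, and 1 of 7 tested genes around MET fell.

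LRIG1 had the largest rise, and it encodes a membrane protein that promotes the degradation of ERBB receptors and MET. Its level was -2.88 and -2.81 for shControl, -3.35 and -3.06 for shNontarget, -2.34 and -2.36 for shBEX2-1, and -1.64 and -1.57 for shBEX2-2. Every BEX2-knockdown array lay above every control array, and the log2 fold change was 1.05 (standard error 0.23, adjusted p = 0.0201 by limma). RNF41, a ubiquitin ligase that targets ERBB3, read -1.77, -2.01, -1.66 and -1.99 on the control arrays and -2.56, -2.40, -2.48 and -2.55 on the BEX2-knockdown arrays. RNF41 thus fell without overlap, its log2 fold change being -0.64 (standard error 0.14, adjusted p = 0.0180 by limma). SOCS5, which promotes the degradation of EGFR, fell by 0.60 (standard error 0.17, adjusted p = 0.0486), again without overlap, and lost the call with the replicate number as a block (adjusted p = 0.0560 by limma).

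SPINT1 encodes an inhibitor of the proteases that activate hepatocyte growth factor. It read 2.73, 2.76, 2.31 and 2.31 on the control arrays and 1.69, 1.91, 1.98 and 2.09 on the BEX2-knockdown arrays, and fell by 0.61 (standard error 0.16, adjusted p = 0.0341 by limma). PIK3R2, a regulatory subunit of PI3K, fell by 0.53 (standard error 0.14, adjusted p = 0.0382), from 3.42 to 3.60 on the control arrays to 2.81 to 3.23 on the BEX2-knockdown arrays, and by a small margin lost the call under that block. LRIG1, RNF41, SOCS5, SPINT1 and PIK3R2 each lost the call without shControl replicate 1 and on leaving out either of the shBEX2-2 arrays. With only shNontarget as control 1 of the 64 pathway genes passed by limma at the adjusted threshold, where 341 of all 20450 genes did. With only shControl 23 passed, where 6842 of all genes did. Without shNontarget replicate 1 there were 17 (4722 of all genes), and without shBEX2-2 replicate 1 there were 0 (1247 of all genes).

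**Figure D4:**
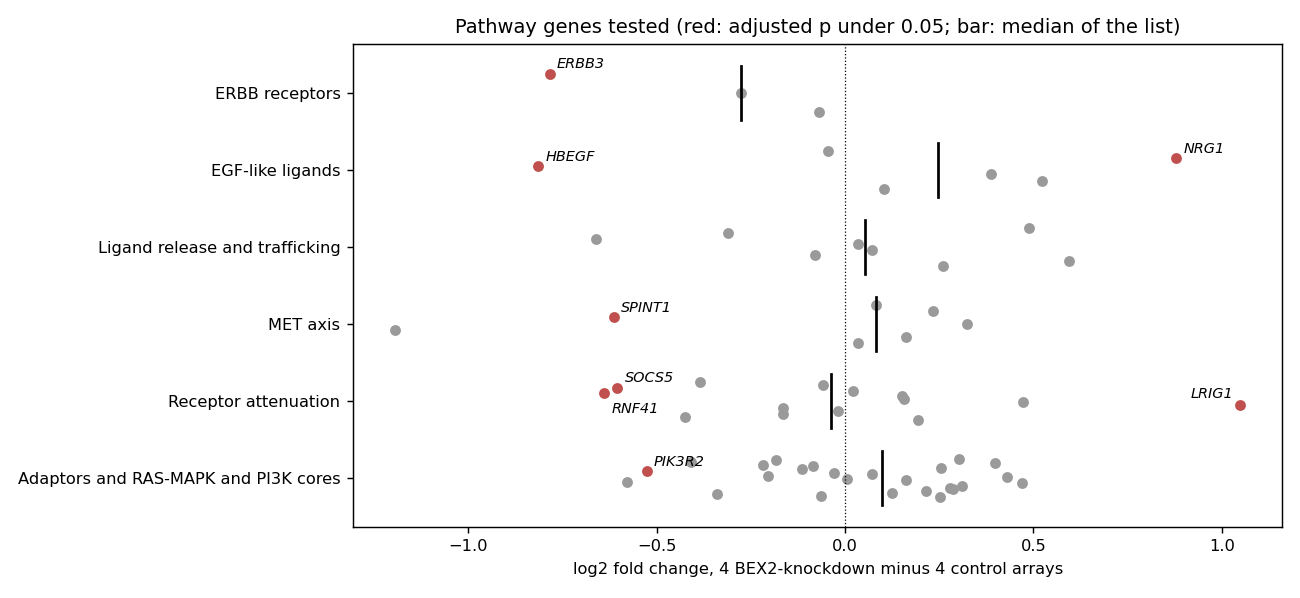
Fitted log2 fold change of each tested pathway gene, 4 BEX2-knockdown arrays against 4 control arrays, by list; red points passed an adjusted p of 0.05 and are named, grey points did not, and the bar is the median of the whole list, of which 1 gene is not drawn. The 8 named genes lay on both sides of 0, from -0.82 for HBEGF to 1.05 for LRIG1, and list medians lay between -0.28 and 0.25.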

How the data were processed

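RNA of HuCCT1 sublines was labelled with Cy3 and hybridized to Agilent arrays of design 028004. The authors deposited, per array, the processed intensity of Feature Extraction 10.7.3.1, with background subtracted, detrended, low values replaced by a surrogate (19.9% to 25.9% of spots) and no scaling between arrays, together with flags for spots well above background. The table of the whole series held the same intensities within 0.497%. Gene names, accessions and hg19 positions were those of the array design, and no annotation of hg19 was used here.

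Control spots and outlier flags were left out, log2 intensity minus the 75th percentile of the array was taken, the spots of each probe were averaged, and a gene was represented by its brightest probe among those well above background on 4 or more of the 8 arrays. In R 4.3.3, limma 3.58.1 (statmod 1.5.0) compared 4 against 4 arrays and, in a model of the 4 vectors, each vector, with a variance trend and Benjamini-Hochberg adjustment over 20450 genes at 0.05. Tables and figures used matplotlib 3.10.9, pandas 2.3.3 and numpy 2.4.6 under Python 3.11.15. The script was tested on simulated data.

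The genes, lists and tests were chosen with earlier results of these data known. Named were the 10 genes, the other receptors and ligands of the families, BEX2, called genes of each pathway list (at most 4 a list) and the 3 genes most like HBEGF, and 1 gene under this rule and 1 cell type marker are left unreported. Replicate numbers were taken as pairs, since names of the deposited files give numbers 1 and 2 a day each. Replicate differences of 2 vectors correlated across genes with r of 0.259, 0.126, -0.063, 0.113, 0.207 and 0.228. Alternatives covered normalization, background, filter, probe choice, replicate block, vector block, model, test, each control vector alone and each array left out.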

Additional observations from a re-analysis of the deposited data

Results flagged for a closer look

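On the control arrays, 4 of the 10 genes had an array far from the other 3, measured as its gap to the nearest divided by the whole range (over 0.829 stands out among 4 arrays). EREG gave 0.942, with shNontarget replicate 2 at 2.59 and the others between 2.10 and 2.13. TGFA gave 0.921, with shNontarget replicate 2 at -0.48 and the others between -0.058 and -0.021. EGFR gave 0.885, with shNontarget replicate 2 at 2.66 and the others between 2.34 and 2.38. ERBB3 gave 0.857, with shNontarget replicate 1 at -0.16 and the others between 0.56 and 0.68. For 4 values drawn alike, chance gives such a gap in about 1 of 20 groups. Looked at were 36 groups (the 4 control and the 4 BEX2-knockdown arrays, for each gene named with its arrays). Each group mixed arrays of different vectors, and the genes shared the arrays, so that this rate is only a rough guide here. All 4 arrays were shNontarget arrays, the vector whose arrays differed most over all genes, and the part of that in these gaps was not tested.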

How the results depend on the processing

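Between BEX2-knockdown and control cells, 2 of the 10 genes passed, where 2646 of all 20450 genes did. The count was 1 with the mean of all passing probes (2591 of all genes) and 3 in the model of the 4 vectors (2793), with BTC added. It was 4 with only shControl as control (ERBB2, ERBB3, EREG and HBEGF), where 6842 of all genes passed. With only shNontarget it was 1 (341 of all genes), and with the adjusted methods' t-test 1 (2174 of all genes). That is Student's test, which the methods give for groups in general, while for arrays they give a rank product, not run here. Leaving out single arrays gave 0 (shBEX2-2 replicate 1, 1247 of all genes) to 3 (shNontarget replicate 2, 4306 of all genes). For shBEX2-1 (2 genes) the count was 1 with quantile normalization (1594 of all genes) and 1 with no filter on dim probes (1062). With only shControl it was 0 (1091 of all genes). For shBEX2-2 (1 gene) it was 0 with only shControl (1519 of all genes). In the model of the 4 vectors a fit without 1 array leaves its vector with 1 array, so that no counts are given for such fits. Pathway genes (9) were 23 with only shControl (6842 of all genes) and 1 with only shNontarget (341). They were 5 with the adjusted (2174 of all genes) and 20 with the unadjusted methods' t-test (5422). With arrays left out they were 0 (without shBEX2-2 replicate 1, 1247 of all genes) to 17 (without shNontarget replicate 1, 4722 of all genes).

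With the replicate number as a block, the count over the 4 vectors fell from 1 to 0 and that of pathway genes to 6, as NRG1 (adjusted p = 0.0543 by limma), SOCS5 (0.0560) and, by a small margin, PIK3R2 lost their calls. The pairing changed no call of the 10 genes in the other comparisons. BEX2 was at -0.45 with normexp and -1.83 with only shNontarget (adjusted p = 0.0791 and 0.0787 by limma).

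Directions turned only in genes that were not called. EGFR was at 0.015 with only shControl and, with arrays left out, from -0.13 (shBEX2-1 replicate 1) to 0.0066 (shNontarget replicate 2). TGFA was at 0.19 with the mean of its probes, 0.071 with only shNontarget, and -0.16 (without shNontarget replicate 2) to 0.0023 (without shBEX2-2 replicate 1). In shBEX2-1 cells MET was at 0.033 with only shNontarget, and -0.055 (without shBEX2-1 replicate 2) to 0.045 (without shBEX2-1 replicate 1). There ERRFI1 was at -0.093 with quantile normalization, -0.040 with normexp, -0.084 with only shNontarget, and -0.023 (without shNontarget replicate 1) to 0.031 (without shNontarget replicate 2). The causes were not tested, and a block for slide or scan was not run, since all arrays shared 1 of each.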
